A study of Drosophila melanogaster with 6 samples.

Results

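The 8 insulin-like peptide genes of Drosophila melanogaster, Ilp1 to Ilp8, and ImpL2, the gene of a secreted insulin-binding protein, were examined for DamID peaks of the microproteins Simba1 and Simba2. All 9 genes were taken by name from 17684 genes on the 6 chromosome arms, and peaks that touched a gene span or the 1 kb on either side of it were kept. Ilp1 to Ilp5 lie in a row on arm 3L and were treated as 1 locus, from 1 kb before Ilp1 to 1 kb after Ilp5, which gives 5 loci. They held 42 of the 95996 deposited peaks, 32 of them within 1 kb of a member and 10 in the stretch between Ilp4 and Ilp5 beyond those flanks. The brains of interest expressed Dam-Simba2 or Dam-Simba1, a fusion of the microprotein to the adenine methylase Dam, and the control brains expressed Dam alone (UAS-Dam). All 3 transgenes were driven by grh-Gal4 with tub-Gal80ts, so the methylation comes from cells in which this neural stem cell (NSC) driver is active, although DNA was taken from the brain. Every group was collected as embryos over 4 h, held at 18 °C for 44 h until hatching and shifted to 29 °C for 24 h before dissection. There was 1 sample per group in each of 2 batches. The peaks of a fusion library had been called against the Dam sample of its own batch, so Simba2 and Simba1 share a control within a batch.

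Insulin-like peptides are secreted hormones that signal through the insulin receptor and the PI3-kinase pathway, and in the larva they couple feeding to growth. NSCs of the brain are quiescent at hatching and re-enter the cell cycle in response to insulin signalling when the animal feeds. The peptides themselves are known mainly from other cells: Ilp2, Ilp3 and Ilp5 from the insulin-producing neurons of the brain, Ilp6 from fat body and glia, and Ilp7 from neurons of the ventral nerve cord. Ilp8 is a relaxin-like peptide made by growing or damaged imaginal discs, and ImpL2 binds insulin-like peptides outside the cell and restrains their signal. In DamID a fusion protein methylates GATC sequences near the sites it occupies, so a peak marks enrichment over Dam alone and does not measure transcription.

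The fusion libraries held 1069703 to 1506081 reads after removal of duplicates, and the Dam controls 868080 (batch 1) and 1321104 (batch 2). The 4 lists differ in length, with 22479 and 35237 peaks for Simba2 (batches 1 and 2) and 17254 and 21026 for Simba1. All had been written without a q limit, so a listed peak may be weak. Fold enrichment, q and the rank of a peak by q are the authors' values and describe a peak within its own list.

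Every member had a listed peak in at least 1 library, while 10.1% of all genes had none in any. By any listed peak, the share of members marked was below that of all genes in both batch 1 libraries and above it in both batch 2 libraries. At a q of 0.05 or lower this order did not hold, and the share was below that of all genes in Simba2 batch 2 alone. A listed peak was present at 5 of 9 members in Simba2 batch 1 (55.6%, against 58.9% of all genes) and at all 9 in Simba2 batch 2 (77.4% of all genes). In Simba1 it was present at 4 of 9 in batch 1 (44.4%, against 51.1%) and at 6 of 9 in batch 2 (66.7%, against 46.6%). Both Simba2 batches marked 5 members (51.3% of all genes), namely Ilp1, Ilp2, Ilp5, Ilp6 and ImpL2. Both Simba1 batches marked 3 members (28.8% of all genes), namely Ilp1, Ilp2 and Ilp5, and these 3 had a peak in all 4 libraries (24.1% of all genes). They do not count as 3 separate cases, because Ilp1 and Ilp2 share a peak. Of genes with 0.5 to 2 times the spans of Ilp1 to Ilp5, 47.7% and 66.6% had a peak in Simba2 (batches 1 and 2), 39.8% and 36.5% in Simba1, and 11.8% in all 4 libraries. Counting peaks at or under a q of 0.05, the members marked were 5 in each Simba2 library (43.0% and 62.7% of all genes in batches 1 and 2), 4 in Simba1 batch 1 (38.7%) and 3 in Simba1 batch 2 (26.8%). No member reached that q in all 4 libraries, against 11.5% of all genes. Ilp3 and Ilp4 reached it in none, as did 22.8% of all genes.

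Simba2 libraries had more peaks at the 5 loci than the Simba1 library of the same batch. There were 8 in Simba2 batch 1 and 19 in Simba2 batch 2, against 5 in Simba1 batch 1 and 10 in Simba1 batch 2. Peaks within 1 kb of a member alone numbered 5 and 17 in Simba2 (batches 1 and 2) and 3 and 7 in Simba1. The lowest Simba2 library therefore lay below the highest Simba1 library, and the groups overlapped. Simba2 averaged 13.5 ± 7.78 peaks at the loci and Simba1 7.5 ± 3.54 (SD, n = 2 each; exact two-sided permutation p = 0.667, where 0.333 is the smallest p that 2 against 2 libraries allow). The difference, Simba2 minus Simba1, was 3 peaks in batch 1 and 9 in batch 2. The difference of the means, 6 peaks, was 0.5 without Simba2 batch 2, 11.5 without Simba2 batch 1 and 3.5 without Simba1 batch 1. With the 4 lists cut to equal length it was 3 peaks. Per 10000 peaks of a library, the loci held 3.56 and 5.39 in Simba2 and 2.90 and 4.76 in Simba1 (batches 1 and 2), so batch 2 was higher in both proteins. Peaks covered 7.77% and 15.7% of the loci in Simba2, against 7.88% and 12.4% of the arms. In Simba1 they covered 6.32% and 8.43% of the loci, against 6.16% and 6.58% of the arms.

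**Figure D1:**
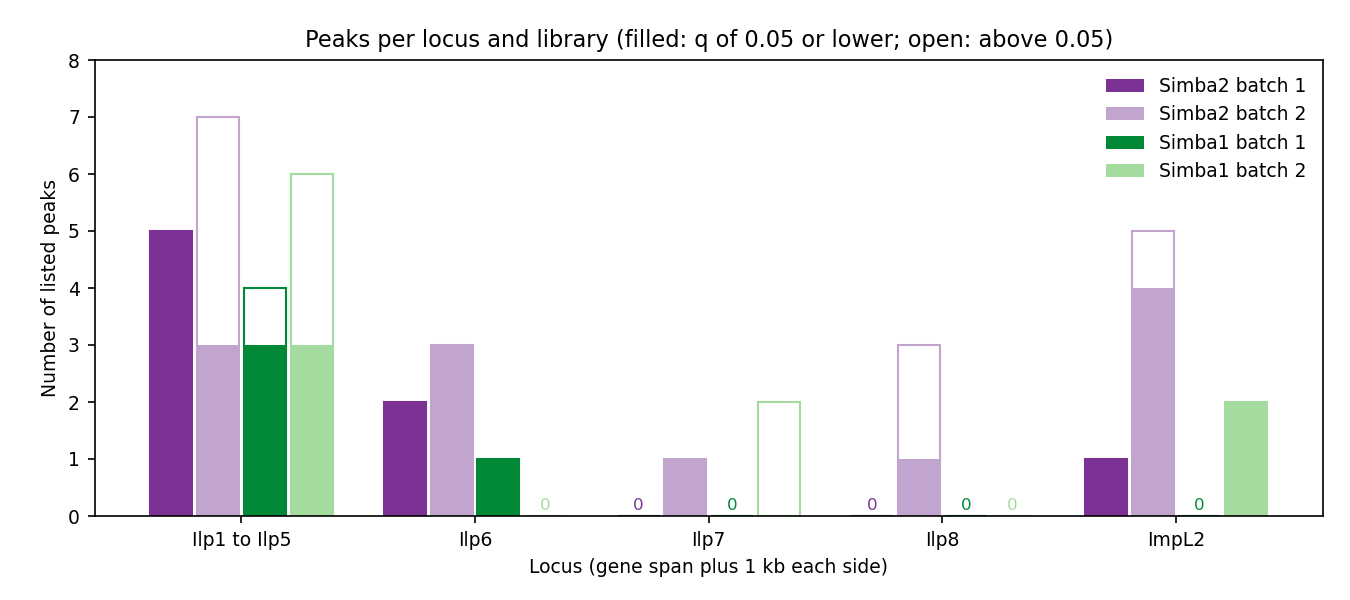
Number of listed peaks at each of the 5 loci in each fusion library, where the filled part of a bar counts peaks with q of 0.05 or lower and the open part counts those above it. The Ilp1 to Ilp5 locus held 4 to 7 peaks in every library, Ilp8 had peaks in Simba2 batch 2 alone, and Ilp7 in the batch 2 libraries alone.

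The Ilp1 to Ilp5 locus (dm6, 3L, 9798420 to 9823897) holds Ilp1 to Ilp4 within a few kilobases and Ilp5 at its far end. The RefSeq spans of Ilp1 to Ilp4 lie inside the longer gene CG32052, and Ilp5 lies inside CG43897. With its flanks the locus measures 27.5 kb, and it held 5 and 7 peaks in Simba2 (batches 1 and 2) and 4 and 6 in Simba1. Consecutive windows of that length along the arms had medians of 4 and 7 peaks in Simba2 and 3 and 4 in Simba1. As many peaks or more were found in 47.1% and 55.1% of windows for Simba2 and in 46.1% and 26.8% for Simba1. The Simba2 minus Simba1 difference was 1 peak in each batch (means 6 ± 1.41 and 5 ± 1.41, SD, n = 2 each; exact two-sided permutation p = 0.667), and it was 0 without Simba2 batch 2 or without Simba1 batch 1. All 4 libraries had a peak in 91.0% of the 4869 windows, as here. The peaks formed 12 merged regions, and 2 of these were present in all 4 libraries. Regions of that kind numbered 2 or more in 10.2% of the windows and at least 1 in 40% of them.

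**Figure D2:**
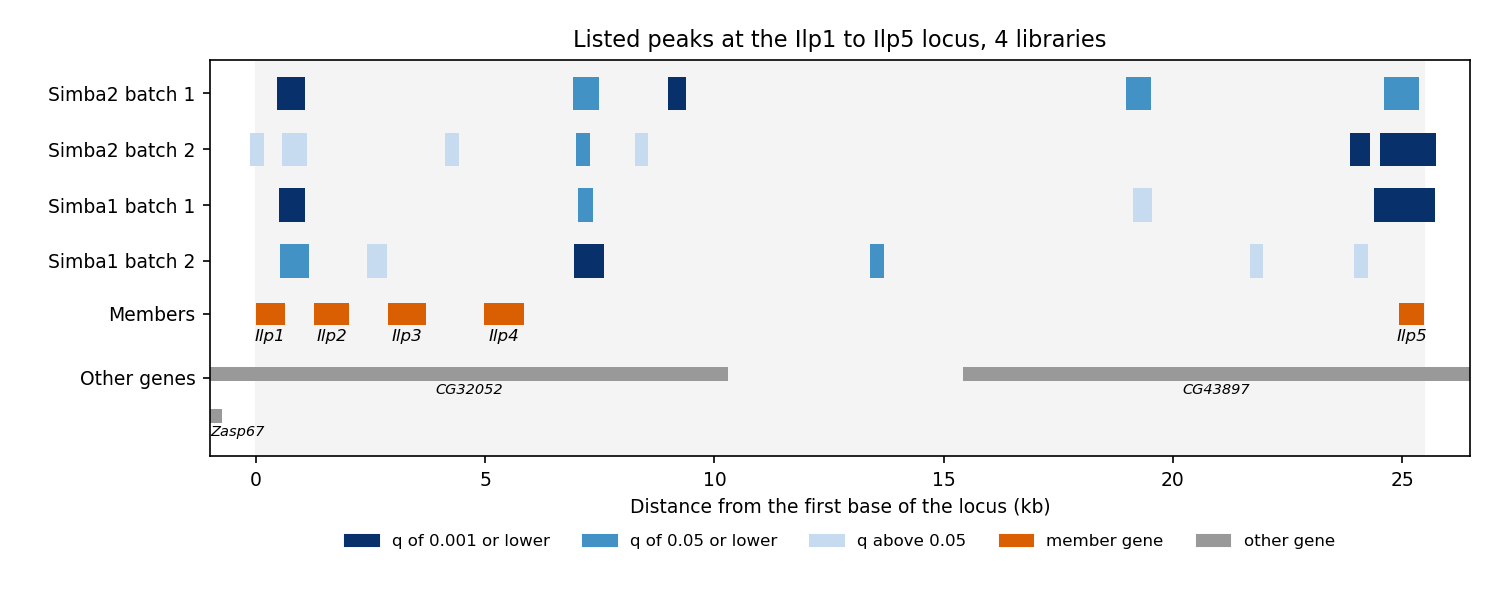
Listed peaks at the Ilp1 to Ilp5 locus and 1 kb beyond it, in a lane per library, with member genes and other genes below; the x axis is the distance in kb from the first base of Ilp1 and the shaded area is the locus. Blocks of all 4 libraries stand at the end of Ilp1 and beyond Ilp4, and those across Ilp5 come from 3 libraries.

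The region between Ilp1 and Ilp2 was listed in every library. Ilp1 (3L, 9798420 to 9799050) encodes a peptide of the insulin-producing cells, best known from the pupa, and Ilp2 (3L, 9799698 to 9800440) the best-known brain insulin. The peaks covered the last bases of the Ilp1 span and ran towards Ilp2 without entering it, and all 4 shared the 497 bases from 9798993 to 9799489. Their summits lay within 130 bp of each other. The authors' fold enrichment was 2.97 (q = 0.000331) in Simba2 batch 1 and 1.90 (q = 0.242) in Simba2 batch 2. In Simba1 it was 2.86 (q = 0.000919) in batch 1 and 3.49 (q = 0.00153) in batch 2. The Simba2 batch 2 peak was thus the weak one, at rank 28223 of 35237, while the Simba1 batch 2 peak stood at rank 2224 of 21026. A further peak of Simba2 batch 2 lay over the other end of Ilp1 (2.16-fold, q = 0.0713).

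Ilp3 and Ilp4 had few and weak peaks. Ilp3 (3L, 9801298 to 9802120), another peptide of the insulin-producing cells, had a Simba2 batch 2 peak beside it (2.40-fold, q = 0.0897) and a Simba1 batch 2 peak on its Ilp2 side (2.22-fold, q = 0.340). The Simba2 batch 2 peak, between Ilp3 and Ilp4, is also the single peak within 1 kb of Ilp4 (3L, 9803399 to 9804263), a gene known from the embryonic mesoderm and midgut. No peak of any library overlapped the span of Ilp2, Ilp3 or Ilp4.

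The other region of all 4 libraries lay beyond Ilp4, with summits 1232 to 1405 bp from that gene, inside CG32052 and outside every 1 kb flank (3L, 9805344 to 9806009, with 262 bases common to all). Its fold enrichment was 3.64 (q = 0.0180) and 2.93 (q = 0.0239) in Simba2 batches 1 and 2, and 3.44 (q = 0.0141) and 4.77 (q = 0.000331) in Simba1 batches 1 and 2. No other region at the 5 loci stayed at or under a q of 0.05 in each list. Its coverage was low: the pileup at the summit was 5.68 and 6 scaled reads in Simba2 and 5.10 and 10.5 in Simba1. The local background of the Dam control was 0.84 and 1.39 reads beside Simba2 and 0.78 and 1.42 beside Simba1, below the arm averages of 1.80 to 2.68. With the background raised to the arm average the fold became 2.38 and 1.92 in Simba2 and 2.18 and 3.13 in Simba1. In the stretch from there to Ilp5, the peak with the lowest q was a Simba2 batch 1 peak inside CG32052 (3L, 9807412 to 9807802; 7.16-fold, q = 4.32e-08), with no peak of the other libraries over it.

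Ilp5 (3L, 9823349 to 9823897), expressed in the insulin-producing cells in response to feeding, was covered whole or in part in 3 libraries. Simba2 batch 1 had a peak of 761 bp there (4.27-fold, q = 0.00209) and Simba2 batch 2 one of 1222 bp (3.82-fold, q = 0.000347). Simba1 batch 1 had one of 1341 bp (4.87-fold, q = 0.000326), the longest of all 42 peaks, whose median length was 427 bp. In Simba1 batch 2 the nearest peak stopped short of the gene (2.74-fold, q = 0.0892) and overlapped a second Simba2 batch 2 peak at that place (4.18-fold, q = 0.000180). Ilp5 therefore counts as marked in all 4 libraries without a stretch common to all 4: the 3 peaks over the gene share 761 bases, and the Simba1 batch 2 peak shares 314 bases with the second Simba2 batch 2 peak. The background at the Ilp5 peaks was 0.75 and 2.14 reads beside Simba2 and 1 read beside Simba1 batch 1. Raising it to the arm average gave 2.67- and 3.29-fold for Simba2 and 3.48-fold for Simba1 batch 1.

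By q, the strongest batch 1 peaks at the 5 loci lay at Ilp6, beside the gene and not over it. Ilp6 (X, 2331493 to 2334658) encodes an IGF-like peptide, and its release from glia is known to help wake NSCs. The region from 2330571 to 2331360 was listed in both Simba2 libraries and in Simba1 batch 1, with summits within 60 bp of each other and 721 bases in common. It was 6.10-fold in Simba2 batch 1 (q = 7.71e-15, rank 54 of 22479) and 2.33-fold in Simba2 batch 2 (q = 1.51e-05, rank 3933 of 35237). In Simba1 batch 1 it was 7.21-fold (q = 1.19e-20, rank 6 of 17254). In Simba1 batch 2 no peak was listed within 1 kb of Ilp6, and the nearest was 4.76 kb from the gene. Genes of 0.5 to 2 times the Ilp6 span had a listed peak in 60.6% and 84.2% of cases in Simba2 (batches 1 and 2) and in 51.9% and 45.5% in Simba1. The peak ends 133 bp before the Ilp6 span in Simba1 batch 1. It overlaps lncRNA:CR33218, and the whole stretch lies inside Raf, the gene of a kinase of the MAP kinase pathway, so the peak cannot be assigned to Ilp6 by position alone.

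Coverage beside Ilp6 was high in the 3 libraries with a peak there, and the Dam background differed between batches. The pileup was 35.7 and 46.0 reads in Simba2 batches 1 and 2 and 42.3 in Simba1 batch 1, or 19.7, 17.4 and 23.5 times the arm average of each library. The background was 5.02 reads beside Simba2 batch 1 and 5 beside Simba1 batch 1, where the control is the same sample, and 19.2 beside Simba2 batch 2. Relative to the arm average that is 2.78 times in each batch 1 library and 7.26 times in Simba2 batch 2. The part of this difference in the missing Simba1 batch 2 peak was not tested. Over the Ilp6 span itself, Simba2 batch 1 had a peak of 2.13-fold (q = 0.0276) and Simba2 batch 2 a peak of 2.85-fold (q = 0.000308), at separate positions. Simba1 had none there. The third Simba2 batch 2 peak lay at the edge of the flank (2.59-fold, q = 0.00822).

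Ilp7 and Ilp8 had peaks in batch 2 only. At Ilp7 (X, 3667621 to 3668845), which lies outside other genes except for an overlap of 9 bp with Parg, Simba2 batch 2 had a peak inside the gene of 6.98-fold (q = 2.85e-10, rank 625 of 35237). Simba1 batch 2 had a weaker peak at the same place (2.96-fold, q = 0.0816), with summits 20 bp apart, and another over an end of the gene (2.36-fold, q = 0.243). In batch 1 the nearest peak was 3.17 kb away in Simba2 and 3.36 kb in Simba1. Among genes of 0.5 to 2 times the Ilp7 span, 50.3% and 72.2% had a listed peak in Simba2 batches 1 and 2, and 42.2% and 38.3% in Simba1. Ilp8 (3L, 17029812 to 17032080) had 3 peaks in Simba2 batch 2, the best of them inside the gene (3.55-fold, q = 0.000348), and a pair with q of 0.0573 and 0.108. The other libraries had none within 1 kb, the nearest being 6.78 kb away in Simba2 batch 1, 2.67 kb in Simba1 batch 1 and 4.63 kb in Simba1 batch 2. For genes of 0.5 to 2 times the Ilp8 span, a listed peak was present in 55.8% and 80.1% in Simba2 and in 47.4% and 41.6% in Simba1.

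ImpL2 (3L, 4224006 to 4236147), the longest member at 12142 bp, had 1 and 5 peaks in Simba2 (batches 1 and 2) and 0 and 2 in Simba1. A region inside the gene was listed in both Simba2 batches and in no Simba1 library (3L, 4231781 to 4232108), at 2.97-fold (q = 0.000314) in batch 1 and 2.20-fold (q = 0.0242) in batch 2, with summits 39 bp apart. The share of regions on the arms listed in this way was not counted, and in each batch the Simba2 list is the longer. Whether the proteins differ here was not tested. Near the end of the gene that adjoins CG43367, both batch 2 libraries had a peak over the same bases, of 3.35-fold (q = 0.00102) in Simba2 and 3.10-fold (q = 0.0142) in Simba1. Both also had a peak where ImpL2 overlaps CG46460, of 1.48-fold (q = 0.662) in Simba2 and 3.01-fold (q = 0.00591) in Simba1. The best Simba2 batch 2 peak covered the other end of the gene (4235824 to 4236535; 3.11-fold, q = 3.86e-05). In Simba1 batch 1 the nearest peak was 8.24 kb away, although 79.7% of genes of 0.5 to 2 times the ImpL2 span had a peak in that library. In the other libraries those shares were 88.1% and 97.3% for Simba2 and 76.7% for Simba1 batch 2.

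**Figure D3:**
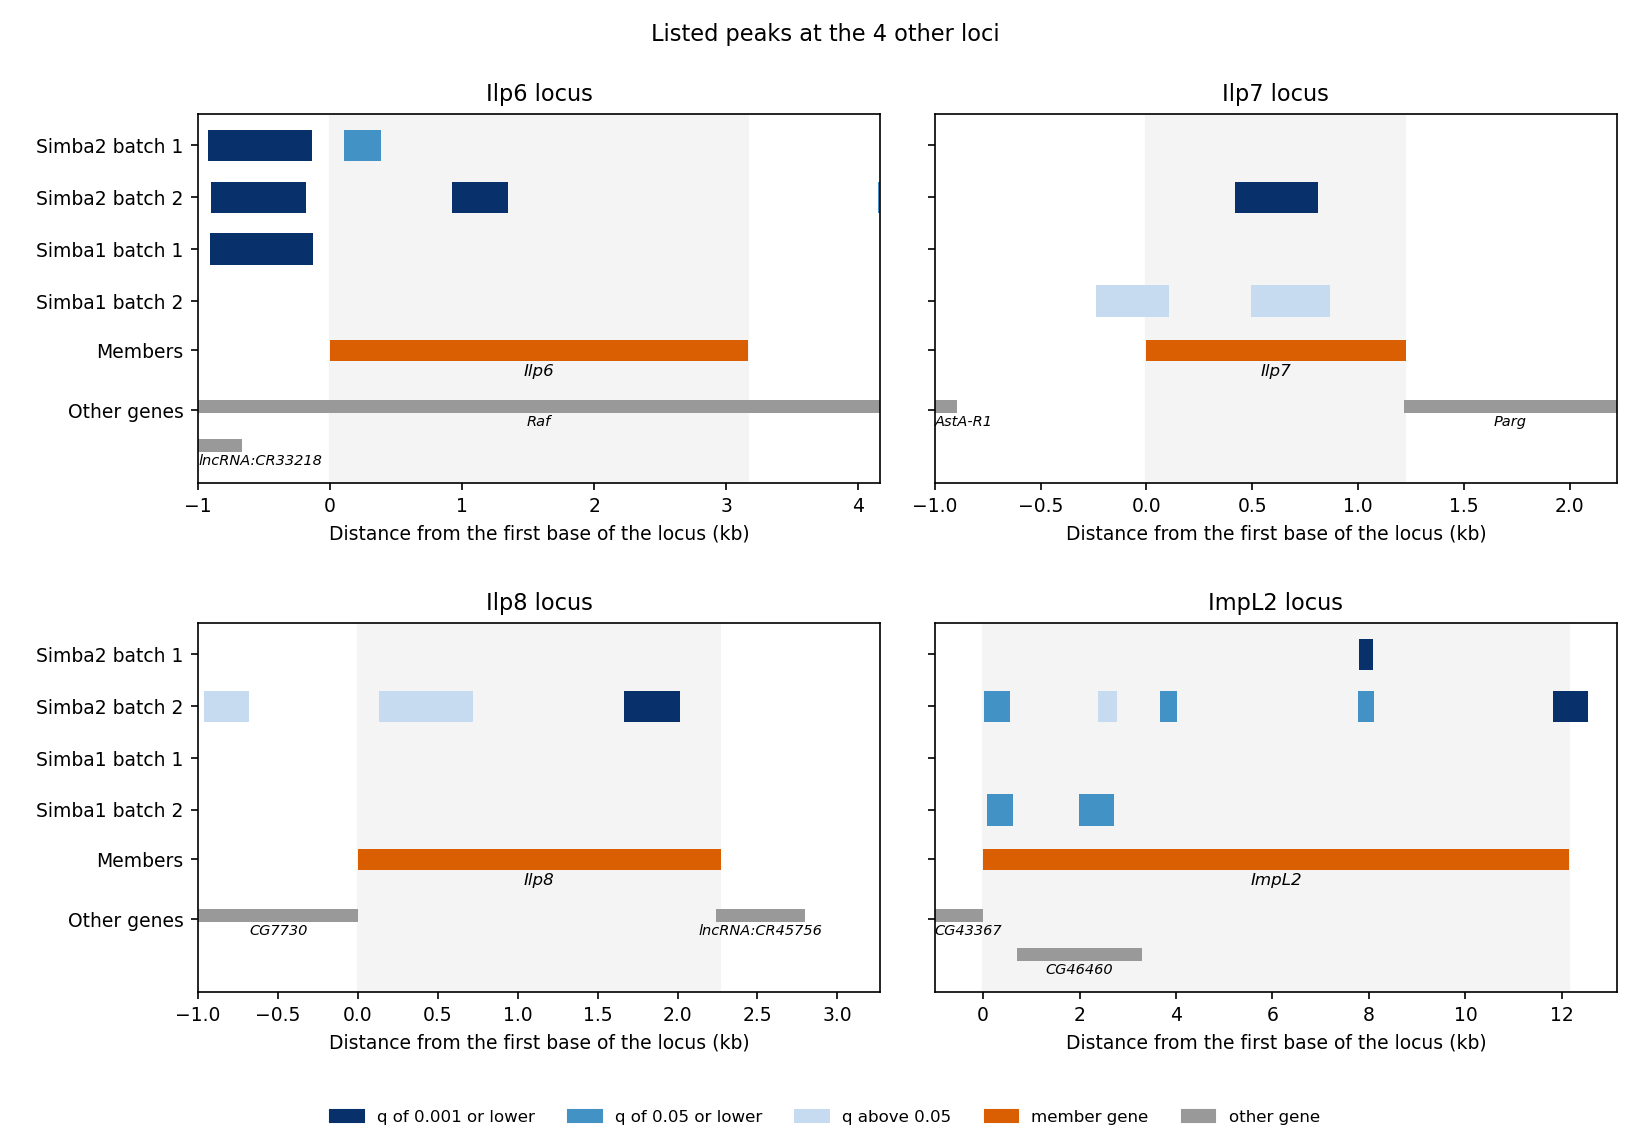
Listed peaks at Ilp6, Ilp7, Ilp8 and ImpL2 with 1 kb on each side, in a lane per library, with member genes and other genes below; the x axis is the distance in kb from the first base of the member and the shaded area is its span. Beside Ilp6 and not over it, 3 libraries have a block with q of 0.001 or lower, and Ilp7 and Ilp8 carry blocks of batch 2 alone.

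Taking all loci, the 42 peaks formed 26 merged regions, of which 16 were in a single library (61.5%, against 58.3% of 55460 regions on the arms). Of the rest, 6 were in 2 libraries, 2 in 3 libraries and 2 in all 4 (7.69%, against 4.49% on the arms). Without Simba1 batch 2, the other 3 libraries had 4 regions in common. Simba2 batch 2 alone accounted for 10 of the single-library regions, Simba1 batch 2 for 4 and Simba2 batch 1 for 2. These counts by library and the 4 regions in common were not set beside the same counts on the arms. Simba2 batch 2 also had the longest list. Between batches, where the Dam controls were separate samples, the Simba2 lists shared 5 places at these loci, which is 62.5% of the 8 peaks of batch 1 and 26.3% of the 19 of batch 2 (51.9% and 33.7% on the arms). The Simba1 lists shared 2, which is 40% of the 5 peaks of batch 1 and 20% of the 10 of batch 2 (26.9% and 22.7% on the arms). Between the proteins, Simba2 batch 2 and Simba1 batch 1 shared 4 places, which is 21.1% of the 19 Simba2 peaks and 80% of the 5 Simba1 peaks (27.7% and 54.5% on the arms). Simba2 batch 1 and Simba1 batch 2 shared 2, which is 25% of the 8 Simba2 peaks and 20% of the 10 Simba1 peaks (25.8% and 28.0% on the arms). Simba1 batch 1 thus had more places in common with Simba2 batch 2 than with Simba1 batch 2, as it did on the arms (54.5% against 26.9%). The Simba2 batch 2 list is also longer than that of Simba1 batch 2 (35237 against 21026 peaks). No test was made of these small counts.

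**Figure D4:**
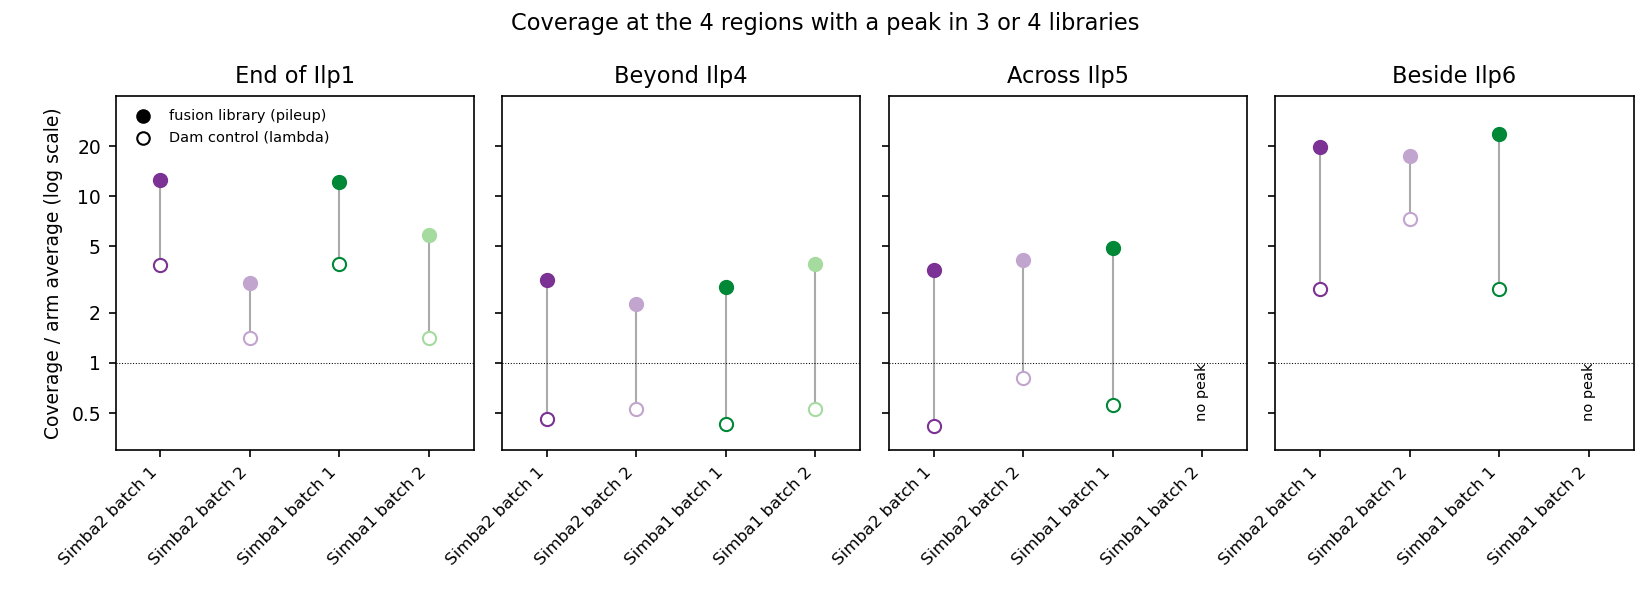
Coverage at the 4 regions listed in 3 or 4 libraries, as a multiple of the arm average (log scale), with filled points for the pileup of the fusion library and open points for the local background of its Dam control. The background is above the arm average at the end of Ilp1 and beside Ilp6 and below it beyond Ilp4 and across Ilp5.

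The regions listed in 3 or 4 libraries differed in their Dam background, which was above the arm average at some and below it at others. At the end of Ilp1 the background was 3.87 and 1.42 times the arm average beside Simba2 and 3.90 and 1.42 times beside Simba1 (batches 1 and 2). Beside Ilp6 it was higher than average too, as given above. Beyond Ilp4 it was 0.463 and 0.527 times beside Simba2 and 0.432 and 0.527 times beside Simba1. Across Ilp5 it was 0.416 and 0.811 times beside Simba2 and 0.556 times beside Simba1 batch 1. The pileup at these 4 regions ranged from 2.27 times the arm average (Simba2 batch 2, beyond Ilp4) to 23.5 times (Simba1 batch 1, beside Ilp6). Of all 42 peaks, 18 had a background below the arm average, 39 had a deposited fold of 2 or more, and 34 kept such a fold with the background raised to that average. These counts were not set beside the same counts over all listed peaks, so they do not tell whether the loci differ from the lists.

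The genes that receive and bind these hormones also held peaks. InR, the insulin receptor gene, had a peak at or under a q of 0.05 in every list, with best peaks of 4.48- and 4.84-fold in Simba2 and 6.85- and 7.28-fold in Simba1 (batches 1 and 2). Its span is far longer than that of any member, and it held 9 and 15 peaks in Simba2 and 5 and 4 in Simba1. Lgr3, the gene of the Ilp8 receptor, had best peaks of 3.20- and 3.46-fold in Simba2 and 2.99- and 3.38-fold in Simba1, the Simba1 batch 1 peak with q = 0.0546. Lgr4, the gene of a related receptor linked to Ilp7, had 4.34- and 6.62-fold peaks in Simba2, none in Simba1 batch 1 and 5.63-fold in Simba1 batch 2. Sdr, which encodes a secreted decoy of the insulin receptor, had 3.13- and 3.46-fold peaks in Simba2, 3.79-fold in Simba1 batch 1 and none in Simba1 batch 2. In the list of 18 genes from receptors to TOR, a peak was present in 18 and 18 genes in Simba2 and 14 and 12 in Simba1, and 9 genes had a peak in all 4 libraries (50%). Over all genes these shares were 58.9% and 77.4% in Simba2, 51.1% and 46.6% in Simba1 and 24.1% in all 4 libraries. The median span of the list was 6898.5 bp, and it was not matched on span. With InR, the genes foxo, Thor and mTor met the same limit in every list, which makes 4 of the 18, against 11.5% of all genes. The genes foxo, Thor and mTor encode the transcription factor restrained by insulin signalling, the translation inhibitor 4E-BP and the TOR kinase.

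Other peptide hormone genes were counted in the same way. Of 39 such genes, 29 and 30 had a listed peak in Simba2 (batches 1 and 2) and 26 and 24 in Simba1. The shares of all genes were 58.9% and 77.4% in Simba2 and 51.1% and 46.6% in Simba1. A peak was present in all 4 libraries at 13 hormone genes (33.3%, against 3 of 9 members and 24.1% of all genes). At or under a q of 0.05 in every list were 5 of the 39, and 11.5% of all genes. The highest of these 5 by rank were Ptth, Trissin, NPF and sNPF. Ptth, the gene of the hormone that triggers ecdysone release, had best peaks of 5.34- and 3.74-fold in Simba2 and 5.61- and 5.12-fold in Simba1. Likeness to the members was measured over 57 genes of these lists as the summed difference in the percentile of the best peak over the 4 libraries. A library without a peak counted as 0, so genes with peaks in the same libraries as a locus are favoured. NPF, sNPF and InR came closest to the Ilp1 to Ilp5 locus (summed differences of 35.3, 35.7 and 41.2 percentile points), all with peaks in the 4 libraries. For the locus the best peaks of Simba2 batch 1 and Simba1 batch 2 lay between Ilp4 and Ilp5, beyond the 1 kb flanks, while the list genes were scored within such flanks. Lgr4, Lgr3 and Tsc1 came closest to ImpL2 (34.3, 60.4 and 65.9 points). Lgr4 and Tsc1 lack a Simba1 batch 1 peak as ImpL2 does, which the measure favours and which is no separate result. Such likeness over 4 libraries is a description, and those of 1 batch share their control.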

How the data were processed

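DamID was done in larval brains with 1 sample each of Dam-Simba2, Dam-Simba1 and Dam alone in each of 2 batches, and the analysis rests on the peak lists of the 4 fusion libraries. Per the submitters' processing notes, bcl2fastq 2.19.0.316, FastQC, Bowtie2, ChIPseeker and the dm6 build were used. Per the file headers, MACS 3.0.0 was run by the authors on each fusion library with the same-batch Dam sample as control, with a q limit of 1 and an effective genome size of 2910000000 bp, 21.7 times the 134 Mb of the arms, which lowers the minimum background. The pileup is a deposited signal, read coverage at the summit after the larger library was scaled down. The deposited -log10 p and q values and the fold ratio, pileup plus 1 over background plus 1, are the authors'. The background (lambda, the largest of the local estimates MACS makes from the control) was recovered from this ratio. Poisson p values computed from it were within 0.01 of the deposited ones on the -log10 scale for 99.3 to 100% of peaks. It was compared with an arm average, all reads of the smaller library times fragment length over arm length. Reads outside the arms were included, which raises this average.

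Gene spans were taken from RefSeq (Release 6, the same build as the peaks), which gives no strand, exons or start sites. Promoters, GATC sites and sequences were not analysed here. An overlap of 1 bp with a span plus 1 kb counted. Members, lists and tests were chosen with earlier results of these data known. Named genes were all members, genes touching their peaks or within 5 kb, InR, Sdr, Lgr3, Lgr4, list genes at or under a q of 0.05 in every list (at most 4 per list), and the 3 list genes most like Ilp1 to Ilp5 and ImpL2. Of 40 hormone gene symbols 39 matched. Proteins were compared by exact permutation over libraries (scipy 1.17.1), and such p-values reflect only how these samples vary. The labels give the batch, which pairs the libraries. Over 13390 bins of 10 kb the deviations of Simba2 and Simba1 from their means correlated (Pearson r = 0.22, across bins), so within-batch values are given. The libraries of a batch share their Dam control, so this r cannot separate the batch from the control. Overlap counting was tested on simulated data.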

Additional observations from a re-analysis of the deposited data

How the results depend on the processing

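Of 63 alternative values for the differences between Simba2 and Simba1, 58 kept the direction, 5 were 0 and none reversed. Those that kept it include the values with the batch as a block, which equal the differences of the means by design. For peaks at the Ilp1 to Ilp5 locus the difference was 0 with lambda raised to the arm average and a fold of 2 or more and 0 with lists of equal length. Equal length also gave differences of 3 peaks at all loci, 0.5 members and 1193.5 covered bp. With the batch as a block, as the mean of the within-batch differences, the difference was 6 peaks at all loci, 2 members, 2367 covered bp and 1 peak at the Ilp1 to Ilp5 locus (exact sign-flip p = 0.5, the smallest that 2 pairs allow). With so few libraries neither this test nor the permutation test could have made a call. Leaving out libraries gave 0 to 4 members, 0.5 to 11.5 peaks, 215 to 4519 bp and 0 to 2 peaks at the Ilp1 to Ilp5 locus. In the same settings, 3 to 6 members had a peak in every remaining Simba1 library and 5 to 9 in every remaining Simba2 library. Every remaining library had a peak at 3 to 6 members, and 2 to 6 merged regions were in every remaining library. Shares of all genes were not set beside these counts.

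The counts of shared members and regions depended on the peak threshold. Shares of all genes were computed for listed peaks and for a q of 0.05 or lower, both with 1 kb flanks. They were not computed at the other settings, so those counts do not tell whether the members differ from other genes. At q of 0.05 or lower, 3 members were marked in both Simba2 batches (34.5% of all genes) and 0 in all 4 libraries (11.5% of all genes), with 1 region in all 4. At q of 0.001 or lower these were 2, 0 and 0, and both Simba1 batches marked 0 members. With lambda raised to the arm average and a fold of 2 or more, 1 member and 0 regions were in all 4 libraries. With lists of equal length (17254 peaks), both Simba2 batches marked 3 members, and 1 member and 1 region were in all 4. Without flanks both Simba1 batches marked 1 member and all 4 libraries 1, and with flanks of 2 kb these were 5 and 5. Counting only peaks within 1 kb of a member, an alternative added after seeing the data, left 1 region in all 4 libraries. An overlap of 100 bp and summits inside the window left every such count within 1.5 times its value. A peak that is not listed is not shown to be absent, and with 2 libraries per protein the exact permutation test used here cannot go below a p of 0.333.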

Other observations

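Genes that mark cell types of the larval brain and of the fat body were counted in the same way, from short lists. Of 7 NSC genes (dpn, ase, wor, mira, insc, grh and pros), 6 and 7 had a listed peak in Simba2 (batches 1 and 2) and 6 and 3 in Simba1, and 2 had a peak in all 4 libraries. These 2 were grh, the gene of the driver used here, and pros, which have the longest spans of the NSC list. Of 5 glial genes (repo, moody, gcm, wrapper and nrv2), 2 and 5 had a peak in Simba2 and 3 and 4 in Simba1, and 2 had one in all 4. All 5 neuronal genes (elav, nSyb, Syt1, brp and fne) had a listed peak in every list, with a median span of 27653 bp, against 3360 bp for the NSC list. Of 5 fat body genes (Lsp2, Fbp1, Fbp2, FASN1 and apolpp), 4 and 4 had a peak in Simba2 and 3 and 3 in Simba1, and 1 had one in all 4. Over all genes the shares were 58.9% and 77.4% in Simba2, 51.1% and 46.6% in Simba1 and 24.1% in all 4 libraries. At or under a q of 0.05 in every list were 2 NSC, 0 glial, 5 neuronal and 1 fat body gene, against 11.5% of all genes. The lists were not matched on span and not tested against each other.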
